A study of Homo sapiens with 24 samples.

Results

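The genes described are 34 direct targets of the transcription factor p53, picked by name from general knowledge of the pathway, with earlier results of these data known. They were found by symbol among the 38048 genes of the count table; all 34 were present, and all 34 passed the filter on low counts that left 16640 genes for testing. The study asked what combined inhibition of PRMT5 and LSD1 does to gene expression in MV4-11, an acute myeloid leukaemia cell line carrying an MLL-AF4 fusion. Every library came from this single line, which the labels record as PRMT5 +/+. PRT220 inhibits PRMT5, the enzyme that makes most symmetric dimethylarginine, and GSK-LSD1 inhibits LSD1 (gene KDM1A), a histone lysine demethylase. The 8 groups held 3 libraries each, lettered A, B and C. They were DMSO vehicle, 3 nM PRT220, 10 nM GSK-LSD1 and both agents together, each for 3 days, and then MS023, which blocks the type I enzymes that make asymmetric dimethylarginine, the pair MS023 and GSK-LSD1, and the code-named compounds MC4455 and MC4491. Doses and times of the last 4 groups are not given in the sources used here, and the LSD1 agent of the MS023 combination is named there only as LSD1.

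p53 is kept low in unstressed cells by MDM2, a ubiquitin ligase that marks it for destruction and that p53 itself switches on, and by the related MDM4, which masks its activation domain. When the loop is released, p53 binds response elements near its targets, made of a pair of similar 10-base motifs. The targets include brakes on the cell cycle, mitochondrial and receptor genes of cell death, DNA repair genes and genes of metabolism and antioxidant defence. PRMT5 loss is known to alter splicing of MDM4 and, in several cell types, to raise p53 activity.

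Promoters of the members were read from RefSeq (GRCh38.p14) as 250 bases before and 50 after each start. Of the 34 genes, 29 had an entry, with 41 windows between them; TP53INP1, RRM2B, GADD45A, TNFRSF10B and PHLDA3 had none. Both strands were searched for the consensus 10-base motif of the p53 response element, and for a pair of it with at most 2 mismatches in 20 bases and a gap of at most 1. The single motif stood in 7 of the 41 member windows (17.1%) and in 6.63% of all 35116 RefSeq windows. The pair stood in 5 member windows (12.2%) and in 1.34% of all. Among those 5, the windows of the MDM2 starts 68809017 and 68809024 overlap and hold the same site. A match describes letters and not a bound site, and the 2 patterns overlap. The matches of all 8 genes that hold either pattern are printed, and the results below refer back to those of DDB2, MDM2 and SESN1. DDB2 holds the pair without a mismatch, MDM2 has its pair at an internal start, and SESN1 has a motif beside a start that is hardly used. The FAS pair also lies by a hardly used start, 88991431, whose transcripts had a mean of 0.047 CPM in DMSO and 0.125 under PRT220. Capitals mark the match, lower case its flanks.
DDB2 at chr11:47214979-47214999 (+), pair with 0 mismatches and a gap of 1, in a noncoding part of an exon: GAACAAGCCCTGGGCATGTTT
AEN at chr15:88621306-88621325 (+), pair with 2 mismatches, in a noncoding part of an exon: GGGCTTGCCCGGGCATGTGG
FAS at chr10:88991309-88991328 (+), pair with 2 mismatches, in a noncoding part of an exon: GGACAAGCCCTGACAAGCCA
MDM2 at chr12:68808903-68808962 (+), pair with 2 mismatches, intronic in the longer transcripts: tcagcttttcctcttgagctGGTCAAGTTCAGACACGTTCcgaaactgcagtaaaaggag
SESN1 at chr6:109009008-109009057 (-), single motif, outside the exons: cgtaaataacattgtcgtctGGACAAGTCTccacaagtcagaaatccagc
FDXR at chr17:74872996-74873005 (-), single motif, in a noncoding part of an exon: GGGCTTGCCC
PLK2 at chr5:58460209-58460218 (-), single motif, in a noncoding part of an exon: AGACTTGCTT
RPS27L at chr15:63157527-63157536 (-), single motif, in a noncoding part of an exon: AGACAAGCCC

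The libraries held 32.5 to 61.1 (in units of 1e6) estimated gene counts. Levels below are CPM, counts per 1e6, scaled by edgeR's TMM factors; they compare libraries for 1 gene and not genes with each other, since they are not corrected for length. In 8 libraries RRP9, a nucleolar RNA-processing gene, was at 0.677 to 1.73 CPM against 29.1 to 36.2 in the other 16: DMSO C, all 3 PRT220 libraries, PRT220+GSK-LSD1 C, MS023 A and C, and MS023+GSK-LSD1 B. In an edgeR fit with a term for each group, no target gene was called for low RRP9 (smallest adjusted p 0.132, FDXR). That test compares libraries only within groups that hold both kinds. All 3 PRT220 libraries have low RRP9, so it cannot separate low RRP9 from PRT220. Of 9 myeloid identity markers of MV4-11, 8 were above 10 CPM in every library, while erythroid and megakaryocyte, lymphocyte, and epithelial and fibroblast lists summed to at most 34.9, 28.5 and 29.7 CPM, with PF4 and MS4A1 at 0 throughout. The agents act on protein, so the genes they target check nothing: PRMT5 was at 115, 105 and 102 CPM in DMSO and 113, 115 and 107 under PRT220, and KDM1A was at 131, 118 and 119 in DMSO and 112, 112 and 107 under GSK-LSD1 (log2 fold change -0.15, adjusted p = 0.00711; without DMSO A 0.0635). Nothing in the labels says that replicates came from separate cultures, and the spread behind every p-value is that of these libraries alone. In bulk RNA, fewer cells of a kind and less RNA per cell cannot be told apart.

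Of the 7 treatments, PRT220 had the largest number of the 34 listed genes called higher. Against DMSO, 17 of the 34 genes were called higher and 1 lower at an adjusted p below 0.05, where 13.8% of all genes tested were called higher and 11.1% lower. The members' median log2 fold change was 0.27, against 0.00 over all genes, and 29 of 34 estimates were positive. The 18 calls compare with 24.9% of all genes called in either direction. In 22 genes every PRT220 library lay above every DMSO library, which held for 19.9% of all genes; in 1 gene, SESN2, every one lay below, which held for 16.7%. Under GSK-LSD1, 7 genes (20.6%) were called higher and 8 (23.5%) lower, against 17.6% and 15.0% of all genes. The share called higher was thus close to that of all genes. The 15 calls in all (44.1%) compare with 32.6% of all genes in either direction, and the members' median was -0.07, against 0.03 over all genes. The GSK-LSD1 libraries lay wholly above DMSO in 7 members and wholly below in 10, against 25.9% and 20.4% of all genes. Under PRT220+GSK-LSD1, 11 genes were called higher and 7 lower, 18 in all, against 24.4% and 22.1% of all genes and 46.5% in either direction, with a median of 0.04 in members and in all genes. The libraries of the combination lay wholly above DMSO in 12 members and wholly below in 6, against 28.2% and 24.7% of all genes. All comparisons with DMSO share the same 3 DMSO libraries. The 16 members not called under PRT220 included CDKN1A, BTG2, GADD45A, BBC3, PMAIP1 and TP53I3. Outside the list, 37 further p53 targets were tested, and 8 were called higher and 6 lower under PRT220 (median 0.03), as given below.

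**Figure D1:**
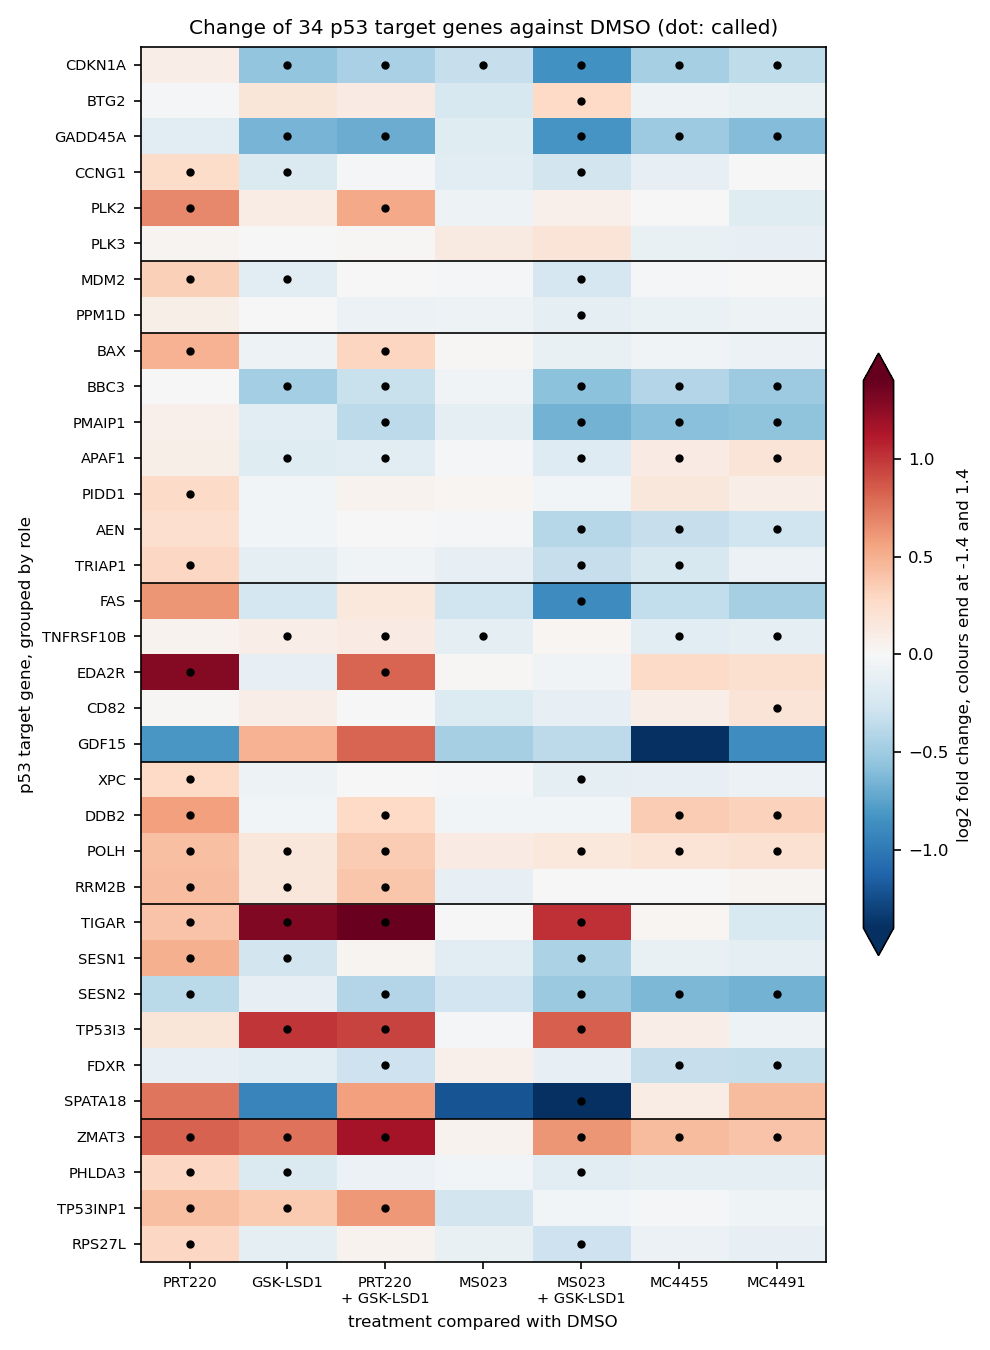
Log2 fold change of each of the 34 p53 target genes (rows, grouped by role) in the 7 treatments against DMSO (columns), with a dot where the edgeR call passed. The PRT220 column is red in most rows with 17 dots on genes that rose, the GSK-LSD1 column has 7 dots on genes that rose and 8 on genes that fell, and the MS023 column has 2 dots.

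**Figure D2:**
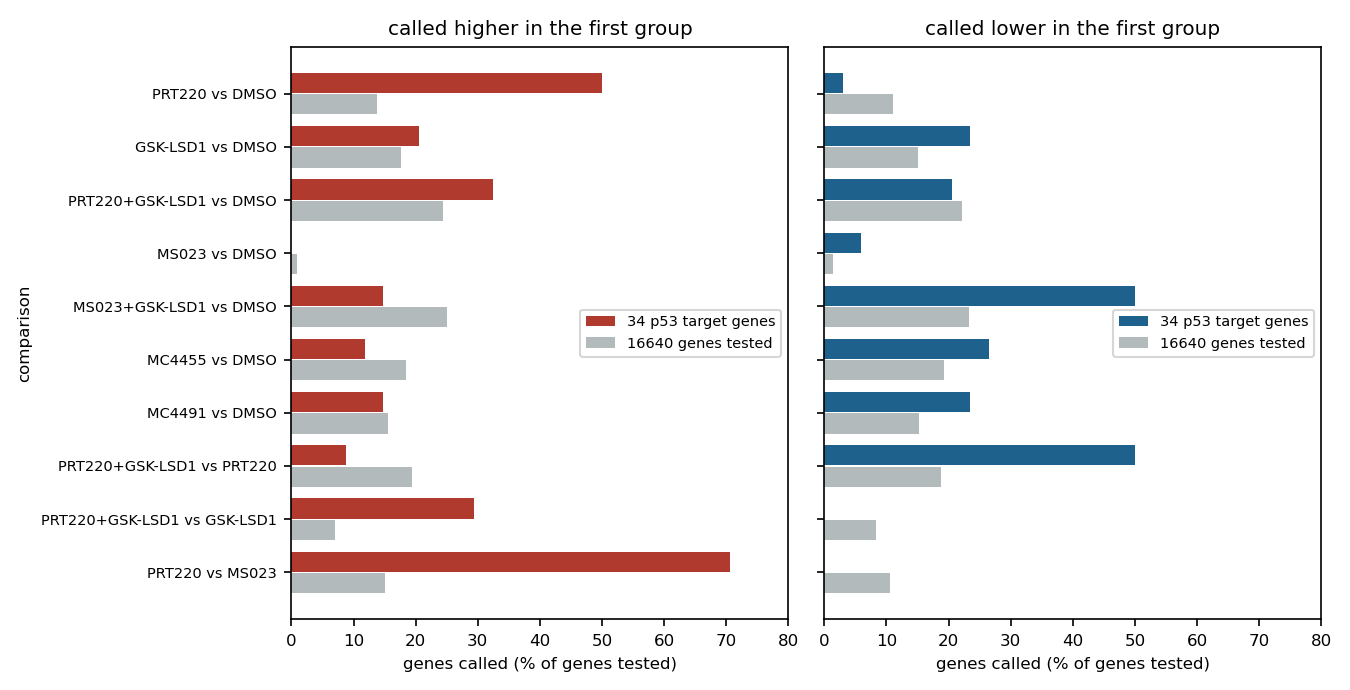
Percent of the 34 p53 target genes (coloured bars) and of the 16640 genes tested (grey bars) called higher (left) or lower (right) in 10 comparisons. The members' share exceeded the grey bar most for higher calls in PRT220 against DMSO (50% against 13.8%) and in PRT220 against MS023 (70.6% against 15.1%).

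Among the 6 brakes on the cell cycle, the main one was not called under PRT220 and fell under GSK-LSD1. CDKN1A encodes p21, the cyclin-dependent kinase inhibitor through which p53 holds cells in G1. It was at 89.9, 105 and 113 CPM in DMSO, 110, 107 and 111 under PRT220, 69.5, 66.5 and 73.6 under GSK-LSD1, and 70.6, 76.5 and 78.4 under both. The PRT220 libraries overlapped the DMSO libraries, and each library with GSK-LSD1 lay below all 6 of them. CDKN1A fell by 0.55 on the log2 scale under GSK-LSD1 (edgeR adjusted p = 6e-06) and by 0.45 under the combination (4.95e-05), while the PRT220 estimate was 0.09 ± 0.074 (SE, adjusted p = 0.415). GADD45A, a stress sensor that binds p21 and PCNA, was also low with GSK-LSD1: 8.15, 8.95 and 9.3 CPM in DMSO, 8.27, 7.57 and 7.77 under PRT220, and 5.58, 5.11 and 6.2 under GSK-LSD1. It fell by 0.65 under GSK-LSD1 (adjusted p = 0.000126) and by 0.70 under the combination (3.26e-05).

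PLK2, a polo-like kinase of centriole duplication, rose under PRT220. It was at 12.4, 13.2 and 12.4 CPM in DMSO, 18.8, 19.6 and 22.3 under PRT220, 14, 12.7 and 14 under GSK-LSD1, and 17.1, 19.1 and 18.8 under both. All 6 libraries with PRT220 lay above the other 6. The change was 1.59-fold for PRT220 (log2 0.67 ± 0.086 SE, adjusted p = 7.73e-06) and 1.44-fold for the combination (3.85e-05). CCNG1, a cyclin that recruits phosphatase 2A to MDM2, rose from 311, 333 and 344 CPM to 391, 392 and 397 under PRT220 (log2 0.26, adjusted p = 0.00287). It fell to 279, 294 and 289 under GSK-LSD1 (-0.20, 0.015) and was at 319, 328 and 322 under both, inside the range of DMSO. BTG2, an antiproliferative cofactor of mRNA deadenylation, and PLK3, a stress-activated kinase, were called in none of these 3 comparisons. DMSO A was low for BTG2, at 29.8 CPM against 42.1 and 42.6 in DMSO B and C.

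Of the genes that feed back on p53, MDM2 was at 314, 310 and 290 CPM in DMSO, 351, 385 and 410 under PRT220, 272, 278 and 272 under GSK-LSD1, and 312, 304 and 299 under both. The 4 groups fell in 3 levels, with PRT220 above, GSK-LSD1 below, and the combination inside the DMSO range. MDM2 rose by 0.33 ± 0.042 (SE) on the log2 scale under PRT220 (adjusted p = 7e-06), fell by 0.15 under GSK-LSD1 (0.0069), and had an estimate of 0.00 under both (0.95). PPM1D, the phosphatase WIP1 that removes activating phosphates from p53 and its kinases, was at 40.4, 40.1 and 42.3 CPM in DMSO and 42.7, 43.4 and 43.6 under PRT220. Those groups did not overlap, but the estimate of 0.08 was not called (adjusted p = 0.138).

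Of the 7 genes in the mitochondrial and caspase arm of cell death, 3 rose under PRT220, and the BH3-only members were not among them. BAX, the pore-forming effector in the mitochondrial outer membrane, was at 83.6, 80.5 and 88 CPM in DMSO, 120, 114 and 119 under PRT220, 79.4, 80.9 and 79.7 under GSK-LSD1, and 103, 108 and 100 under both. All 6 libraries with PRT220 were above the other 6, and those with both agents were below those with PRT220 alone. The change was 1.4-fold for PRT220 (log2 0.49 ± 0.049 SE, adjusted p = 3.16e-07) and 1.23-fold for the combination (3.03e-05; 0.11 when only libraries with low RRP9 were kept). TRIAP1, an inhibitor of caspase activation by the apoptosome, rose from 28.2, 28.7 and 31.4 CPM to 35.2, 37.4 and 35.4 under PRT220 (log2 0.29, adjusted p = 0.000509). PIDD1, the scaffold that activates caspase-2, rose from 44, 43.1 and 47.7 CPM to 49.2, 54.5 and 58.3 (0.27, adjusted p = 0.00587), a call lost without PRT220 C (0.20, 0.07). Kept to libraries with low RRP9, which leaves 1 DMSO library, the TRIAP1 and PIDD1 estimates were 0.19 and 0.17 with adjusted p of 0.16 and 0.327.

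BBC3, which encodes the BH3-only killer PUMA, was at 10.9, 12.8 and 14.4 CPM in DMSO, 12.1, 13 and 13.5 under PRT220, and 9.07, 8.71 and 9.61 under GSK-LSD1. The PRT220 values lay inside the DMSO range and the GSK-LSD1 values below it. BBC3 fell by 0.48 on the log2 scale under GSK-LSD1 (adjusted p = 0.000826). Its call under both agents (-0.31, adjusted p = 0.0151) was lost without DMSO C (0.0983) or PRT220+GSK-LSD1 C (0.0632). PMAIP1, which encodes NOXA, another BH3-only protein that neutralises MCL1, was at 25.5, 30.8 and 29.4 CPM in DMSO, 27.1, 31.3 and 31.5 under PRT220, and 20.2, 23.8 and 22.3 under both agents. It fell by 0.37 under the combination (adjusted p = 0.00146) and was not called under either agent alone. APAF1, the apoptosome scaffold, fell by 0.17 under GSK-LSD1 (adjusted p = 0.00238) and by 0.15 under the combination (0.00453, and 0.119 among low-RRP9 libraries). AEN, a nuclease of apoptotic cells, missed the threshold under PRT220 (0.23, adjusted p = 0.0628) and passed it without DMSO A (0.0442).

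Of the 5 receptors, membrane and secreted proteins, EDA2R had the largest PRT220 estimate of the 34 genes. EDA2R is a TNF-family receptor for ectodysplasin A2 on chromosome X (66595637 to 66639298, GRCh38). It was at 4.58, 4.09 and 3.86 CPM in DMSO, 8.27, 11.1 and 11.1 under PRT220, 3.73, 3.51 and 4.29 under GSK-LSD1, and 7.44, 7.84 and 6.89 under both. The 6 libraries with PRT220 lay above the other 6, with the combination below PRT220 alone. The fold changes were 2.43 for PRT220 (log2 1.28 ± 0.12 SE, adjusted p = 1.63e-07) and 1.77 for the combination (1.17e-05). FAS, the death receptor for FAS ligand, was low, at 2.54, 2.16 and 1.65 CPM in DMSO and 3.12, 3.39 and 3.22 under PRT220. These groups did not overlap, and the estimate of 0.62 ± 0.23 (SE) missed the threshold (adjusted p = 0.0536), which it passed without DMSO A (0.0382) and with DESeq2 (0.0275). TNFRSF10B, the TRAIL receptor DR5, was at 204, 198 and 202 CPM in DMSO, 203, 212 and 210 under PRT220, and 214, 224 and 218 under both agents. It rose by 0.12 under the combination (adjusted p = 0.00126). Its call under GSK-LSD1 (0.09, 0.0138) was lost without DMSO B (0.154), DMSO C (0.0622), GSK-LSD1 B (0.124) or GSK-LSD1 C (0.0602). CD82, a tetraspanin, was called in none of these 3 comparisons, and GDF15, a secreted stress cytokine, was at 0.0241 to 0.41 CPM across the 24 libraries and called in no comparison.

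All 4 genes of DNA repair and nucleotide supply rose under PRT220. DDB2, the damage-binding subunit of nucleotide excision repair that carries the exact motif pair, was at 71.5, 62 and 66.8 CPM in DMSO, 91.8, 99.3 and 105 under PRT220, 65, 65.2 and 64.2 under GSK-LSD1, and 87.4, 77.3 and 78.5 under both. The PRT220 libraries were the highest, and those of the combination lay between them and DMSO. DDB2 rose 1.48-fold under PRT220 (log2 0.57 ± 0.07 SE, adjusted p = 4.53e-06) and 1.22-fold under both (0.00229). RRM2B, the p53-inducible ribonucleotide reductase subunit, was at 149, 154 and 143 CPM in DMSO, 190, 200 and 209 under PRT220, and 191, 199 and 195 under both. POLH, the translesion DNA polymerase eta, was at 69, 67.8 and 65.4 CPM in DMSO, 86.2, 92 and 92.8 under PRT220, and 89.2, 83.1 and 87.4 under both. For RRM2B and POLH the combination overlapped PRT220 alone. The PRT220 changes were 0.43 for RRM2B (adjusted p = 1.37e-06) and 0.42 for POLH (6.97e-08).

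XPC, the damage sensor of nucleotide excision repair, was at 56.6, 51.9 and 57.4 CPM in DMSO, 66.1, 67.5 and 67.7 under PRT220, and 55.9, 55 and 54.9 under both. It rose by 0.28 under PRT220 (adjusted p = 6.64e-05), and the combination lay inside the DMSO range. Exons of 3 other genes overlap those of XPC, the largest overlap taking 23.8% of its exon bases, and the libraries are unstranded. Its main coding transcript XPC-201 is therefore given too: 51, 46.6 and 49.4 CPM in DMSO and 57.8, 59.4 and 60 under PRT220. GSK-LSD1 raised POLH by 0.16 (adjusted p = 0.00253) and RRM2B by 0.16 (0.0153), the latter call lost without DMSO C (0.124) or GSK-LSD1 B (0.0958). Under the combination the BAX, DDB2 and TNFRSF10B calls were the ones among genes that rose to be lost when only the low-RRP9 libraries were kept, 1 library of each group (DDB2 0.20, adjusted p = 0.15; TNFRSF10B 0.08, 0.349).

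Of the 6 genes of metabolism, redox and mitochondrial quality, 2 rose and 1 fell under PRT220, and 2 rose and 1 fell under GSK-LSD1. TIGAR, a fructose bisphosphatase that diverts glucose to NADPH production (chromosome 12, 4307763 to 4354593), was at 24.1, 21 and 20.8 CPM in DMSO, 25.2, 27.3 and 34.2 under PRT220, 55.5, 57 and 49.6 under GSK-LSD1, and 56.7, 57 and 57.6 under both. All 6 libraries with GSK-LSD1 were above all 6 without it. The change was 2.46-fold for GSK-LSD1 (log2 1.30 ± 0.098 SE, adjusted p = 1.39e-09) and 2.6-fold for the combination (3.63e-10). The PRT220 call (0.40, adjusted p = 0.00475) was lost without PRT220 C (0.25, 0.0557), in a fit of the 2 groups alone (0.0505) and among low-RRP9 libraries (0.0996). Of TIGAR's exon bases 42.6% overlap another gene on the same strand; its coding transcript TIGAR-201 was at 24.1, 19.7 and 19.6 CPM in DMSO and 53.2, 54.5 and 47 under GSK-LSD1. TP53I3, the quinone oxidoreductase PIG3, was at 2.59, 2.87 and 2.93 CPM in DMSO, 3.51, 3.04 and 2.89 under PRT220, and 4.96, 6.33 and 5.53 under GSK-LSD1. It rose 2-fold under GSK-LSD1 (log2 1.00, adjusted p = 8.08e-07) and was not called under PRT220 (0.17, 0.334).

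The sestrins, which restrain mTORC1, moved apart. SESN1 was at 18.5, 16.8 and 17.4 CPM in DMSO, 22.5, 25.3 and 26.5 under PRT220, 15.1, 14.6 and 14.3 under GSK-LSD1, and 19.9, 17.2 and 16.9 under both. It had the 3 levels of MDM2: a rise of 0.50 ± 0.07 (SE, adjusted p = 2.14e-05) under PRT220, a fall by 0.26 under GSK-LSD1 (0.00683), and a combination that overlapped DMSO (0.04, 0.695). SESN2, which ATF4 also drives, was at 22.9, 24.6 and 26.2 CPM in DMSO, 19.9, 17.6 and 19.1 under PRT220, and 17.1, 20.4 and 18.1 under both. It was the 1 member that fell under PRT220 (-0.38, adjusted p = 0.036), a call lost without DMSO B (0.0679), DMSO C (0.103), PRT220 B (0.113) or PRT220 C (0.0747) and with a term for low RRP9 (0.0546). Under both agents it fell by 0.41 (adjusted p = 0.0137), which was lost without PRT220+GSK-LSD1 A (0.0619). FDXR, a mitochondrial electron donor reductase, fell by 0.29 under the combination (0.017), which was lost without DMSO C (0.0793) or PRT220+GSK-LSD1 A (0.0923). SPATA18, a mitochondrial quality-control gene, stayed under 1 CPM in every library and was called in none of the 3 comparisons. At those levels it was called lower under MS023+GSK-LSD1 against DMSO (-1.55, adjusted p = 0.0339), which was lost without DMSO B (0.0844), DMSO C (0.0761), MS023+GSK-LSD1 A (0.138) or MS023+GSK-LSD1 C (0.119). Its higher call in PRT220 against MS023 (1.96, 0.0101) was lost without MS023 B (0.0591).

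All 4 genes of RNA regulation, signalling and autophagy rose under PRT220. ZMAT3, an RNA-binding splicing regulator (chromosome 3, 179017223 to 179072279), was at 50.3, 47.8 and 44.1 CPM in DMSO, 75.7, 82.6 and 95.3 under PRT220, 80.1, 81.6 and 78.8 under GSK-LSD1, and 109, 106 and 102 under both. Each agent alone put all libraries above DMSO, and the combination lay above both. The fold changes were 1.78 for PRT220 (log2 0.83 ± 0.073 SE, adjusted p = 5.13e-08), 1.69 for GSK-LSD1 (5.51e-08) and 2.23 for the combination (6.5e-11). TP53INP1, an autophagy and stress protein, was at 14.9, 17 and 15.1 CPM in DMSO, 18.3, 21.4 and 23.2 under PRT220, 19.2, 20.9 and 20.4 under GSK-LSD1, and 24.7, 23 and 24.1 under both. It rose by 0.42, 0.37 and 0.61 in these 3 groups (adjusted p = 0.000905, 0.00216 and 5.24e-06). ZMAT3, POLH, RRM2B and TIGAR were likewise called higher under each agent alone, with the lost calls of RRM2B and TIGAR given above.

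RPS27L, a ribosomal protein paralogue that stabilises p53, rose from 73.1, 70.9 and 63.1 CPM to 77.3, 84.8 and 90.4 under PRT220 (log2 0.29, adjusted p = 0.00158). PHLDA3, an inhibitor of AKT, rose from 24, 22.3 and 24.4 CPM to 27, 29.8 and 29.8 under PRT220 (0.29, adjusted p = 0.000444) and fell to 20.3, 20.1 and 21.1 under GSK-LSD1 (-0.20, 0.00767). Its coding transcript PHLDA3-202, given because 19.1% of the gene's exon bases overlap another gene, was at 19.2, 18.9 and 20.6 CPM in DMSO and 22.7, 27.1 and 24.9 under PRT220. Among low-RRP9 libraries, where DMSO has 1, the PHLDA3 and TP53INP1 estimates under PRT220 were 0.23 and 0.46 with adjusted p of 0.126 and 0.091, and that of CCNG1 was 0.18 with 0.102. Across libraries with RRP9 of 10 CPM or more, the GSK-LSD1 estimates of CCNG1, RRM2B and PHLDA3 were -0.16, 0.13 and -0.17 with adjusted p of 0.0563, 0.0865 and 0.0649.

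**Figure D3:**
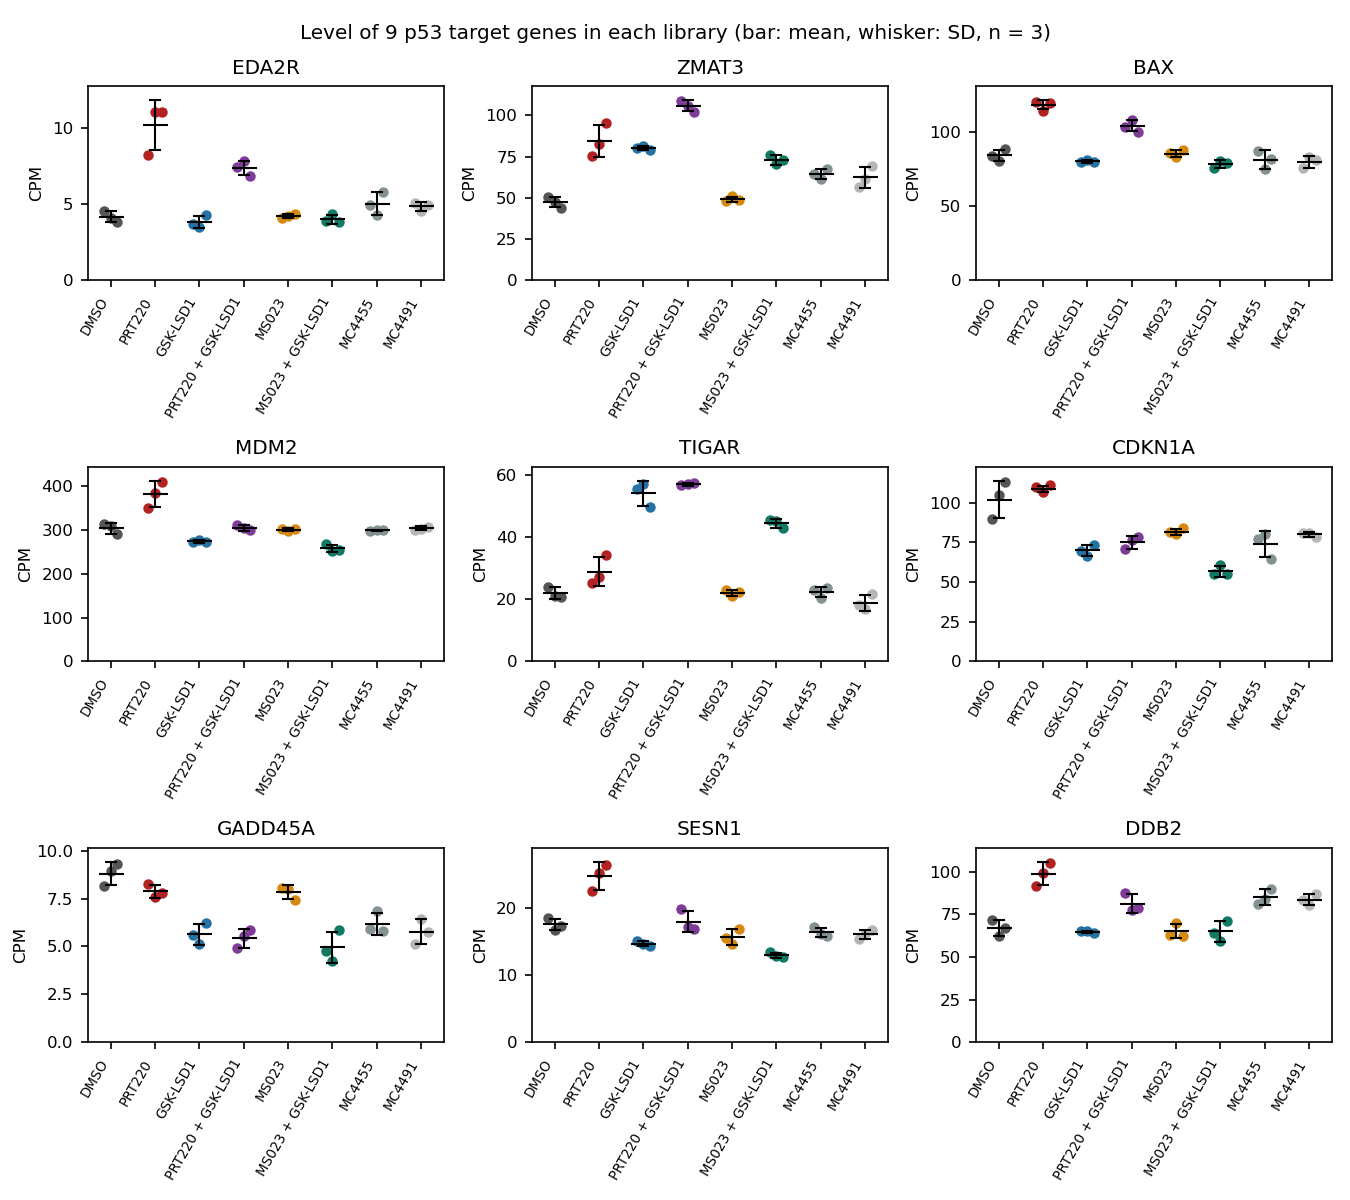
CPM of 9 p53 target genes in every library (points) of the 8 groups, with the mean (bar) and SD (whisker, n = 3). EDA2R and BAX are raised in the groups holding PRT220, TIGAR in those holding GSK-LSD1 and ZMAT3 in both kinds, while CDKN1A and GADD45A are lowered in those holding GSK-LSD1. ZMAT3 is also raised, and CDKN1A and GADD45A also lowered, under MC4455 and MC4491.

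The transcript table separates start sites and isoforms. MDM2 has an upstream group of starts and an internal group at the promoter that holds the p53 motif pair shown above. That internal promoter, up to the first exonic base (chr12:68808767-68809001, +, GRCh38.p14, intronic in the longer transcripts), is printed because it is known as the p53-responsive promoter of MDM2; capitals mark the pair.
MDM2 internal promoter: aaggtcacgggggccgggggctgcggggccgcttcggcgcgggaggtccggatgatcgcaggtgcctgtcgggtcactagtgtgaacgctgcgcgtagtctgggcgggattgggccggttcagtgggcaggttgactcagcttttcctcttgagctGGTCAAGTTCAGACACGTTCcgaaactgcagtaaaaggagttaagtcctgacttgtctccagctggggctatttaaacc
Transcripts from the internal starts were at 81.11, 79.47 and 72.63 CPM in DMSO and 91.69, 95.96 and 100.3 under PRT220. Those from the upstream starts were at 226.7, 225.5 and 211.6 in DMSO and 254.3, 280.6 and 301.1 under PRT220. Both sets of starts were higher in every PRT220 library than in every DMSO library. Under GSK-LSD1 the means of the internal and upstream starts were 65.43 and 203.2 CPM, against 77.74 and 221.3 in DMSO. Under both agents the internal starts were at 71.53, 67.65 and 72.73 CPM and the upstream starts at 236, 230.8 and 220.8, and both sets overlapped DMSO. Start groups were not tested. Usage of MDM2 transcripts was not called under PRT220 (limma diffSplice adjusted p = 0.0529) and was called under the combination (0.0131).

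SESN1 rose at 1 start. Transcript SESN1-202, from the start at 109009552 on chromosome 6, was at 10.59, 8.367 and 9.948 CPM in DMSO and 15.12, 17.17 and 17.87 under PRT220, while those from the start at 109094846 were at 7.301, 7.346 and 7.169 in DMSO and 7.097, 7.304 and 7.739 under PRT220. The first groups did not overlap and the second did. The start that the printed SESN1 motif borders, 109008988, gave a mean of 0.1754 CPM in DMSO and 0.05485 under PRT220. The gene is on the minus strand, so the motif, at 109009028 to 109009037, also lies downstream of the start at 109009552. SESN1-202 gained share within the gene under PRT220 (log2 0.78 relative to the gene, limma diffSplice adjusted p = 0.0202).

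**Figure D4:**
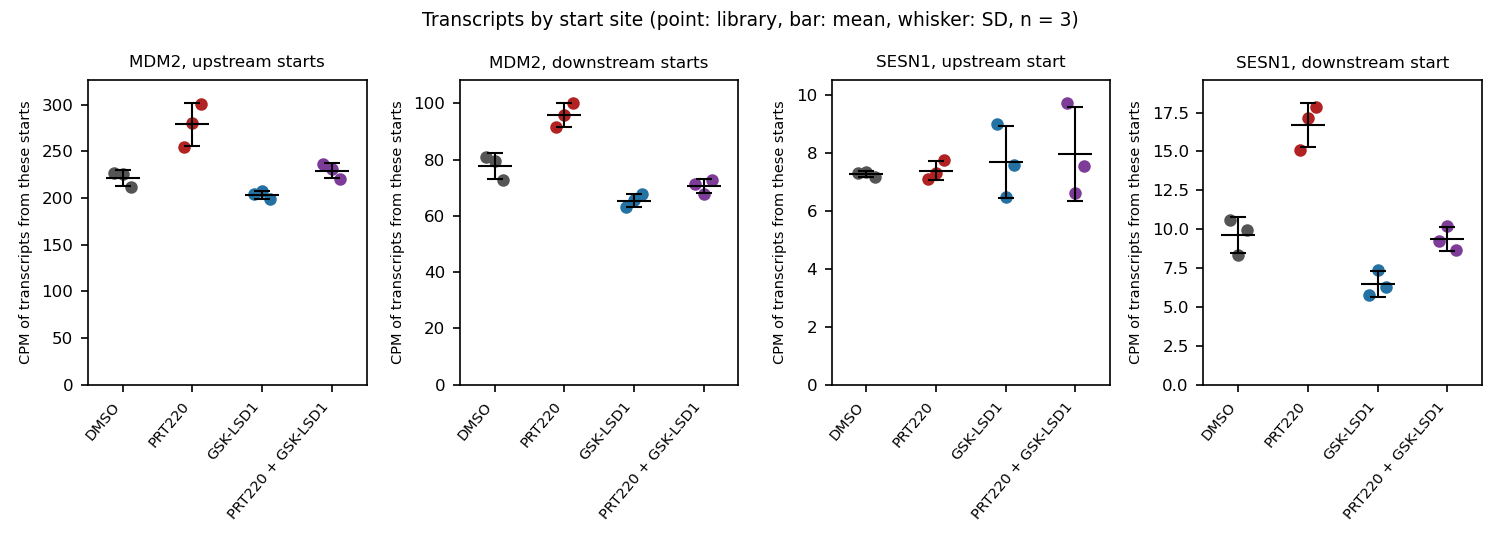
CPM of transcripts grouped by start site for MDM2 and SESN1 in DMSO, PRT220, GSK-LSD1 and the combination (points, libraries; bar, mean; whisker, SD, n = 3). Both MDM2 start groups and the downstream SESN1 start drawn (109009552) were higher in all 3 PRT220 libraries than in DMSO, and the upstream SESN1 start was not. The hardly used SESN1 start at 109008988, further downstream, is not drawn.

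Transcript usage could be tested in 31 members. Under PRT220 it was called in 5 (BAX, DDB2, PIDD1, SESN1 and TNFRSF10B), against 16.3% of the 11439 genes tested, and under GSK-LSD1 in 1, TNFRSF10B, against 5.21%. Under the combination it was called in 7, against 19.6%. The share of members called was close to that of all genes in each comparison. The isoforms below are therefore described gene by gene and not as a trait of the list. BAX-207, with a retained intron, was at 8.65, 8.08 and 8.35 CPM in DMSO and 17.4, 18 and 24.1 under PRT220 (log2 0.78 relative to the gene, limma diffSplice adjusted p = 0.000318). The coding BAX-202 was at 32.5, 28.1 and 28.5 CPM in DMSO and 35.8, 34.4 and 34.4 under PRT220, and lost share (-0.41, 0.0379). DDB2-212, with a retained intron, was at 1.36, 1.34 and 0.858 CPM in DMSO and 4.49, 5.64 and 6.31 under PRT220 (1.69, 4.98e-05). DDB2-210, another transcript with a retained intron, lost share (-0.63, 0.0151), at 14.8, 14.5 and 15.6 CPM in DMSO and 14.9, 14.8 and 18 under PRT220. The coding PIDD1-202 went from 5.81, 6.16 and 6.41 CPM in DMSO to 0, 1.77 and 0 under PRT220. Estimated transcript counts depend on how reads were shared between isoforms.

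Adding 1 agent to the other gave opposite pictures. Between PRT220+GSK-LSD1 and GSK-LSD1 alone, 10 members were called higher and 0 lower, against 7.01% and 8.34% of all genes (15.3% in either direction), with a median of 0.11. All 10 (BAX, DDB2, EDA2R, MDM2, PLK2, POLH, RPS27L, RRM2B, SESN1 and ZMAT3) were among the 17 called higher in PRT220 against DMSO, a comparison that shares no library with this one, and they made up 58.8% of those 17. Between PRT220+GSK-LSD1 and PRT220 alone, 17 members were called lower and 3 higher, 20 in all, against 18.8% and 19.4% of all genes (38.2% in either direction), with a median of -0.20 against 0.02. The 3 were TIGAR (0.98), TP53I3 (0.78) and ZMAT3 (0.32), and all 3 were also called higher in GSK-LSD1 against DMSO, which again shares no library. All 8 genes called lower in GSK-LSD1 against DMSO were among the 17, of which they made up 47.1%. BBC3, among those 8, lost its call on adding GSK-LSD1 to PRT220 without PRT220 C (edgeR adjusted p = 0.0515) or PRT220+GSK-LSD1 C (0.0604). The same overlaps were not counted over all genes, so whether they are particular to the members was not tested. The strongest falls on adding GSK-LSD1 to PRT220 were those of CDKN1A (-0.54, adjusted p = 8.31e-06), GADD45A (-0.54, 0.00082), SESN1 (-0.46, 2.54e-05) and EDA2R (-0.46, 0.00478). On adding PRT220 to GSK-LSD1, the MDM2 and SESN1 calls (0.16 and 0.30) were lost without PRT220+GSK-LSD1 A (adjusted p = 0.0588 and 0.0508), and that of RPS27L (0.19, 0.0447) with a replicate block (0.0556) and without GSK-LSD1 A (0.0797), GSK-LSD1 C (0.167), PRT220+GSK-LSD1 A (0.0647), PRT220+GSK-LSD1 B (0.206) or PRT220+GSK-LSD1 C (0.055). On adding GSK-LSD1 to PRT220 among low-RRP9 libraries, 3 against 1, the calls of EDA2R and ZMAT3 were lost (0.071 and 0.139).

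The interaction, which asks whether the combined change differs from the sum of the single changes, was called in 0 of 34 members and in 0.541% of all genes. At an unadjusted p below 0.05 there were 11 of the 34 members and 1673 of the 16640 genes tested. DESeq2 called 2 members, ZMAT3 and POLH. The members' median interaction was -0.17, against -0.02 over all genes, and 6 of 34 estimates were positive. The estimate of ZMAT3 was -0.44 (adjusted p = 0.0606, and 0.0195 without PRT220 A); that of POLH was -0.22 (0.0703).

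**Figure D5:**
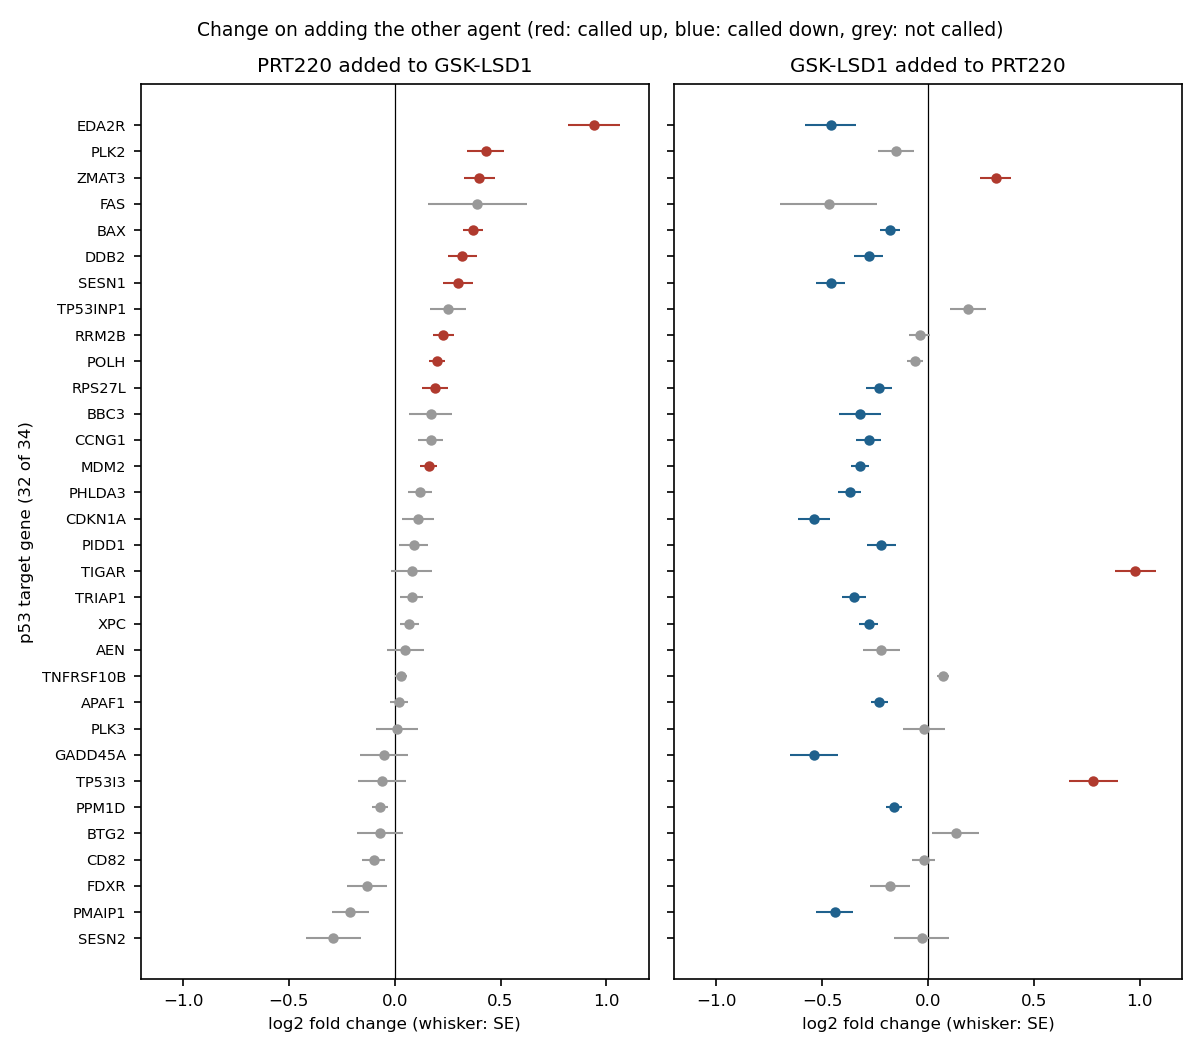
Log2 fold change with SE for 32 members when PRT220 was added to GSK-LSD1 (left) and when GSK-LSD1 was added to PRT220 (right); GDF15 and SPATA18, both under 1 CPM, are left out. Red points (called higher) number 10 on the left, and blue points (called lower) number 17 on the right.

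MS023 did not raise the list. Against DMSO 0 members were called higher and 2 lower, where 0.889% and 1.36% of all genes were called (2.25% in either direction). CDKN1A was at 81.7, 80.1 and 83.8 CPM under MS023 (-0.32, adjusted p = 0.0247) and TNFRSF10B at 183, 181 and 183 (-0.14, 0.00948). The TNFRSF10B call was lost without MS023 B (0.0615). That of CDKN1A was lost without DMSO B (0.0861), DMSO C (0.0998), MS023 A (0.0684) or MS023 B (0.111), and both were lost in a fit of the 2 groups alone (0.208 and 0.248). EDA2R was at 4.12, 4.23 and 4.37 CPM, BAX at 85.3, 83.1 and 87.3 and MDM2 at 302, 298 and 303 under MS023, all inside the DMSO range. Set directly against MS023, PRT220 had 24 members called higher and 0 lower, against 15.1% and 10.6% of all genes (25.7% in either direction), with a median of 0.32. These included EDA2R (1.26), PLK2 (0.75), TP53INP1 (0.68), SESN1 (0.66) and CDKN1A (0.42). The dose of MS023 is unknown here, so the 2 groups are compared as labelled and not at matched exposure.

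Under MS023+GSK-LSD1 more members were called lower than higher. Against DMSO 17 members were called lower and 5 higher, 22 in all, where 23.3% and 25.1% of all genes were called (48.4% in either direction), and the median was -0.14 against 0.03. CDKN1A was at 54.9, 60.9 and 54.9 CPM, below every library of the 7 other groups, and fell by 0.85 on the log2 scale (adjusted p = 1.4e-08). The 5 called genes of the mitochondrial and caspase arm all fell: AEN (-0.40), APAF1 (-0.18), BBC3 (-0.57), PMAIP1 (-0.66) and TRIAP1 (-0.32). MDM2 was at 268, 252 and 255 CPM (-0.24, adjusted p = 9.06e-05). TIGAR (1.02), TP53I3 (0.84) and ZMAT3 (0.62) rose. POLH rose by 0.15 (adjusted p = 0.00361), and the fifth, BTG2 (0.28, 0.0419), lost its call without DMSO A (0.28), MS023+GSK-LSD1 A (0.0808), MS023+GSK-LSD1 B (0.105) or MS023+GSK-LSD1 C (0.0576).

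MC4455 and MC4491 gave profiles that were not told apart. Under MC4455 4 members were called higher and 9 lower, 13 in all, against 18.5% and 19.2% of all genes (37.6% in either direction). Under MC4491 5 were called higher and 8 lower, also 13, against 15.5% and 15.2% (30.7% in either direction). PMAIP1 was at 19.6, 18.4 and 18.9 CPM under MC4455 and 18.6, 20.3 and 19.2 under MC4491, below every DMSO library (-0.59 and -0.56, adjusted p = 4.74e-05 and 0.000138). DDB2 was at 80.8, 84 and 89.8 CPM and 83.1, 80.5 and 86.9, above every DMSO library (0.35 and 0.32, 0.000744 and 0.00194). ZMAT3 (0.44 and 0.40) and POLH (0.19 and 0.21) also rose under each, and CDKN1A (-0.47 and -0.36), GADD45A (-0.51 and -0.61), BBC3 (-0.41 and -0.51), SESN2 (-0.63 and -0.66) and TNFRSF10B (-0.16 and -0.13) fell. EDA2R, BAX, PLK2, RRM2B and TIGAR were called under neither. Between the 2 compounds 0 members were called, as were 0% of all genes. At an unadjusted p below 0.05 there were 3 of the 34 members (CCNG1, TRIAP1 and TIGAR) and 780 of the 16640 genes tested. DESeq2 called 0 members. The 95% intervals of the log2 difference, MC4455 minus MC4491, were -0.27 to 0.05 for CDKN1A, -0.11 to 0.07 for MDM2, -0.11 to 0.20 for ZMAT3 and 0.03 to 0.46 for TIGAR. Whether their doses matched is not given in the sources used here.

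MDM4, the partner of MDM2, changed in its isoforms and was not called at the gene level under PRT220. It was at 329, 344 and 322 CPM in DMSO and 338, 351 and 357 under PRT220 (log2 0.07). At the gene level it was called higher under GSK-LSD1 (0.18, edgeR adjusted p = 0.00265) and under both agents (0.22, 0.000304). The same held for MS023+GSK-LSD1 (0.33, 3.46e-06), MC4455 (0.30, 4.62e-05) and MC4491 (0.27, 0.000193), and not for MS023 (0.07, 0.462). MDM4-205 went from 32.7, 44.1 and 38.8 CPM in DMSO to 97.6, 101 and 126 under PRT220 and 128, 112 and 100 under both, and MDM4-203 from 239, 238 and 247 in DMSO to 195, 195 and 167 under PRT220. Usage of MDM4 transcripts was called under PRT220 (limma diffSplice adjusted p = 7.85e-05) and under the combination (0.000357), and not under GSK-LSD1 (0.739).

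Of 26 regulators of p53, MDM4 and PRMT5 included, 1 rose and 2 fell under PRT220 (median 0.00), 7 rose and 7 fell under GSK-LSD1 (0.01), and 8 rose and 7 fell under both (0.01). Of all genes, 13.8% rose and 11.1% fell under PRT220, 17.6% and 15.0% under GSK-LSD1, and 24.4% and 22.1% under both. The 2 that fell under PRT220 were TP73, a p53 relative (-0.22, adjusted p = 0.018), and TP53BP1, a damage-response scaffold (-0.14, 0.0336). Their calls were lost without DMSO C (0.0634 and 0.104), PRT220 B (0.0559 and 0.106) or PRT220 C (0.0878 and 0.0559), and that of TP53BP1 also without DMSO A (0.0605). PRMT5 was called lower under GSK-LSD1 (-0.22, edgeR adjusted p = 0.00572) and under both agents (-0.21, 0.0047), and was not called under PRT220 (0.06, 0.523). HIPK2, a kinase that primes p53 for killing, rose by 1.25 under GSK-LSD1 and 1.39 under both. ATM, the kinase that signals DNA breaks to p53, rose by 0.21 under PRT220 and 0.67 under both, and RCHY1, a p53 ubiquitin ligase, fell by 0.51 under both. Of 40 further p53 targets outside the 34, 37 were tested: 8 rose and 6 fell under PRT220 (median 0.03), 5 rose and 7 fell under GSK-LSD1 (0.08), and 12 rose and 10 fell under both (0.17), to be read against the same shares of all genes. GASK1B, a Golgi protein, rose by 2.24 (adjusted p = 5.14e-07) and TRIM22, an antiviral ubiquitin ligase, by 0.97 (2.51e-10) under PRT220. CSF1, the macrophage growth factor, fell by 1.32 (0.00284) and DDIT4, an mTORC1 inhibitor, by 0.78 (0.00363).

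Genes that p53 silences through p21 and the DREAM repressor complex were called lower under each treatment except MS023, in differing numbers. Of 27 such genes, 0 rose and 14 fell under PRT220 (median -0.15), 14 fell under GSK-LSD1 (-0.15), and 27 fell under both (-0.41), where 11.1%, 15.0% and 22.1% of all genes fell. Under MS023 0 were called (-0.03), under MS023+GSK-LSD1 25 fell (-0.41), and under MC4455 and MC4491 25 and 23 fell, where 1.36%, 23.3%, 19.2% and 15.2% of all genes fell in these 4 groups. RRM2, a ribonucleotide reductase subunit of S phase, fell by 0.60 under PRT220 and 0.88 under both. CDKN1A, the p21 gene, was not called under PRT220 and was called lower in each of the other 6 treatments, under MS023 with a call that was lost without any 1 of 4 libraries, as given above.

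Other lists moved in the same libraries as the targets, and their part in the changes above was not tested. Of 20 ATF4 and CHOP targets, of a stress pathway that also drives SESN2, 16 fell under PRT220 (median -0.48), 10 under GSK-LSD1 (-0.20) and 17 under both (-0.51), against the same 11.1%, 15.0% and 22.1% of all genes, with TRIB3, a stress pseudokinase, at -1.57, -1.84 and -2.78. Of 15 markers of monocyte maturation, 7 rose and 1 fell under PRT220 (0.27), 10 rose and 2 fell under GSK-LSD1 (1.80), and 11 rose and 2 fell under both (1.93), where 13.8%, 17.6% and 24.4% of all genes rose. Their summed level was 1233 to 1234 CPM in DMSO, 1411 to 1501 under PRT220, 3468 to 3637 under GSK-LSD1 and 2939 to 3194 under both; none of the 15 was at 0 in all libraries.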

How the data were processed

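MV4-11 RNA was sequenced as poly(A)-selected, unstranded libraries, per the labels' protocols. The deposited gene and transcript tables hold estimated counts, not normalized, and the submitters' processing notes list, without saying what each did, the build GRCh38, DESeq2 1.28.1, R 4.0.0, and the quantifier Salmon 1.2.1 beside the aligner STAR 2.7.3a; the annotation release is not given in the sources used here. Counts were rounded before testing, and totals ran from 32.5 to 61.1 (in units of 1e6) per library.

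Groups came from the sample titles. Genes were filtered with filterByExpr, scaled with TMM and tested with edgeR 4.0.16 (R 4.3.3) by the quasi-likelihood test in 1 fit of all 24 libraries, without covariates. P-values were adjusted by Benjamini-Hochberg over all 16640 genes and called below 0.05. An adjusted p of a gene is from this fit unless its sentence names an alternative, such as a library left out; those of transcripts and of transcript usage are from limma. SE was derived from the fold change and the F statistic. Transcript usage was tested with limma 3.58.1 (voom, diffSplice, Simes p per gene) on 74564 transcripts with at least 10 counts in 3 libraries, named from GENCODE 29. Promoters came from RefSeq (GRCh38.p14). Scripts were tested on simulated data for PRT220 against DMSO. The gene test recovered 63.3% of genes changed 1.5-fold and 74.7% of those changed 2-fold, with 10 false calls. The usage test recovered 33% of genes with a 1.5-fold shift, with 5 false calls, so a gene not called may still have changed.

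The members and lists were chosen with earlier results of these data known. All members could be named, and MDM4, PRMT5 and KDM1A always were; RRP9 was named because it marks libraries that stand apart. One further gene of the rule is not reported here. Of each other list, up to 4 called genes with the largest change under PRT220 or both agents could be named. Alternatives were DESeq2 1.42.0 and its size factors, no filter, a replicate block, a term for low RRP9 (under 10 CPM), libraries of 1 RRP9 level, fits of the compared groups only, and leaving out each library. Replicate letters did not pair the libraries.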

Additional observations from a re-analysis of the deposited data

How the results depend on the processing

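Of 408 estimates (34 members in 12 comparisons), 155 were called, 103 of them under every alternative run; 52 lost the call under at least 1 and 0 changed direction. Leaving out each library in turn gave 15 to 20 called members for PRT220 against DMSO, 14 to 16 for GSK-LSD1, 16 to 18 for both agents and 18 to 22 for MS023+GSK-LSD1. For MS023 against DMSO the 2 calls became 0 with only libraries of low RRP9, 0 with only those of 10 CPM or more, 0 with only the groups compared, and 0 to 4 with a library left out. For MS023+GSK-LSD1 against DMSO 11 members were called with only low-RRP9 libraries, 1 of each group, against 22. PRT220 against DMSO had 12 calls, against 18, with low-RRP9 libraries only, which leave 1 DMSO library, taken to have the spread of the pooled fit. No PRT220 library has high RRP9 and no GSK-LSD1, MC4455 or MC4491 library low RRP9, so those fits could not be run. The interaction called 1 member with a term for low RRP9, 1 with that term and the replicate block, 2 with DESeq2 and 0 to 1 with a library left out. Transcript usage called 3 to 5 members under PRT220, 0 to 1 under GSK-LSD1 and 3 to 7 under both when a library was left out. The cause of these losses was not tested, beyond the fewer libraries in each fit.

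Over 84 pairs of libraries with the same letter in different groups, deviations from the group means had a median correlation of 0.00408, and 5 were over 0.1; 6 of 24 libraries correlated best with their own letter. With the replicate block 19 members were called for PRT220, 16 for GSK-LSD1, 18 for both agents, 2 for MS023, 22 for MS023+GSK-LSD1, 13 for each of MC4455 and MC4491, 20 and 9 on adding GSK-LSD1 or PRT220, 24 for PRT220 against MS023 and 0 for the interaction.

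With 3 libraries a group and genes such as FAS, EDA2R and TP53I3 at a few CPM, depth and replicate number limit how small a change is called. GDF15 and SPATA18 stayed under 1 CPM, where their fold changes have wide errors. Estimated transcript counts carry the added error of assigning reads to isoforms.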

Other observations

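Genes of 2 pathways next to p53 are given here as values from the same edgeR fit, with no explanation. Of the 15 monocyte maturation markers, ITGAM and CYBB are named here, and both rose. In that list 7 rose and 1 fell under PRT220, 10 rose and 2 fell under GSK-LSD1, and 11 rose and 2 fell under both. ITGAM, the integrin CD11b, rose by 1.2 on the log2 scale under PRT220 (adjusted p = 2.39e-05), 3.10 under GSK-LSD1 (1.16e-11) and 3.91 under both (2.99e-13). It was at 0.06 under MS023 (0.912). CYBB, a subunit of the phagocyte NADPH oxidase, rose by 1.51, 2.32 and 3.56 under PRT220, GSK-LSD1 and both (adjusted p = 2.81e-10, 4.34e-14 and 1.43e-16). Its call under MS023 (-0.55, 0.00407) was lost in a fit of the 2 groups alone (0.233) and with only libraries of low RRP9 (0.224) or of RRP9 at 10 CPM or more (0.243). Among ATF4 and CHOP targets, DDIT3, which encodes CHOP, fell by 1.05 under PRT220 (5.87e-05), and PCK2, the mitochondrial enzyme that makes phosphoenolpyruvate, fell by 1.14 (1.14e-08). PCK2 was not called under GSK-LSD1 (-0.09, 0.457), while SLC7A11, the cystine transporter that p53 is known to repress, fell by 0.87 under PRT220 (0.000141) and by 0.82 under GSK-LSD1 (0.000153). TNFAIP8, a further p53 target, was at -0.02 under PRT220 (0.822) and rose by 0.98 under GSK-LSD1 (4.72e-12). All of these comparisons share the 3 DMSO libraries.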
